A study of Rattus norvegicus with 4 samples.

Results

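The guide strands of the related miR-10, miR-99/100 and miR-125 microRNAs (miRNAs) were followed in rat gracilis, which lies in the thigh. They were chosen by name: rno-miR-10a-5p, rno-miR-10b, rno-miR-99a, rno-miR-99b, rno-miR-100, rno-miR-125a-5p and rno-miR-125b-5p, which are 7 of the 350 rat miRNAs on the array and are written below without the species prefix. All samples came from male animals of the Sprague-Dawley strain. The study compared muscle after 4 h of ischemia followed by reperfusion with muscle from sham-operated rats, with 2 samples in each group and 1 Cy3-labelled array per sample. Reperfusion lasted 4 h by the sample labels but 24 h by the series text, and which of them holds is not known. The series text calls the samples of both groups biological replicates, while the sample labels call those after ischemia-reperfusion experimental replicates. Rat age and the number of animals behind each sample are not stated in the labels. Every value below is a deposited total signal in the scanner software's intensity units, after background subtraction, or is computed from such signals.

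miR-10a and miR-10b lie inside Hox gene clusters, the arrays of transcription factor genes that set position along the body axis. In RefSeq's rat gene list Mir10a lay between Hoxb5 and Hoxb4, and Mir10b lay within Hoxd4. miR-99 and miR-100 share much of their sequence with miR-10 and are known in human and mouse cells to repress the growth kinase mTOR. miR-125 is the vertebrate relative of lin-4, the worm miRNA that times larval development, and miR-125b is known to repress Igf2 in mouse myoblasts. Members of the miR-99/100 and miR-125 families flank a let-7 gene in 3 clusters, an old arrangement in which neighbouring miRNAs can be cut from a shared primary transcript.

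The mature sequences show how the 3 families relate, and they decide which miRNAs a hybridisation probe could confuse. RefSeq's GRCr8 table held 6 of the 7 (all but miR-99a). They are written 5′ to 3′ with the seed, bases 2 to 8, which pairs with target mRNAs, in capitals.
miR-10a-5p: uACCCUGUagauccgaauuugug
miR-10b: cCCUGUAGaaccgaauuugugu
miR-99b: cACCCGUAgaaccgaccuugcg
miR-100: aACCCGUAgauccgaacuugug
miR-125a-5p: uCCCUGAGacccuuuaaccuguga
miR-125b-5p: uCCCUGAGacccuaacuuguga
miR-99b and miR-100 share 1 seed, and miR-125a-5p and miR-125b-5p share another. As listed, miR-10b starts 2 bases further in than miR-10a-5p, so the same 7 seed positions fall on different bases, although 20 of the 21 overlapping bases match. The mismatch is U12A, counted from the 5′ end of miR-10a-5p. miR-10a-5p and miR-100 matched at 19 of 22 overlapping bases in an alignment without gaps, and miR-99b and miR-100 at 18 of 22. The partner let-7a differs from let-7c by A19G and from let-7e by U9G, counted from the 5′ end of let-7a. Probe sequences were not analysed here, and how far a probe also binds a near-identical miRNA was not tested.

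In the GRCr8 table the first cluster was compact: Mir99b (chr1:67350064-67350133, + strand) stood 95 bases before Mirlet7e, which stood 353 bases before Mir125a (chr1:67350675-67350759). Mir99a (chr11:29687392-29687472, + strand) lay 639 bases before Mirlet7c1, and the mature miR-125b-5p of Mir125b2 began 44382 bases further on. Mir100 (chr8:50798295-50798374, + strand) lay 6828 bases before Mirlet7a-2, which was followed after 44737 bases by Mir125b1 (chr8:50850036-50850122). Mir10a (chr10:81779709-81779818) and Mir10b (chr3:80035859-80035967) stood apart from these clusters. The array has 1 miR-125b-5p value for the products of both its genes, and let-7a and let-7c each had 2 genes in the table, so their signals cannot be split by cluster.

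The arrays differed in brightness and make-up, which touches every value here. They detected 174 and 121 miRNAs after ischemia-reperfusion (replicates 1 and 2) and 158 and 187 in sham muscle. Over the 78 miRNAs detected on all 4 arrays the median signal was 223 and 34.8 units after ischemia-reperfusion, against 558 and 281 units in sham muscle. Of 5 muscle miRNAs, 5 were detected in ischemia-reperfusion replicate 1 and in each sham muscle (sums of 90702, 211933 and 113072 units), and 0 in ischemia-reperfusion replicate 2, where miR-1 and miR-133b, which define skeletal muscle, lay at 1.02 and 1.93 units. That sample's defining markers therefore do not show the labelled tissue. Of 10 epithelial miRNAs, 2 and 6 were detected after ischemia-reperfusion (sums of 347 and 582 units), against 0 in either sham muscle. The part that these differences in tissue make-up play in the results below was not tested, and fewer cells of a type cannot be told apart from less of a miRNA per cell. The differences between groups and the profile comparisons are therefore also given without ischemia-reperfusion replicate 2.

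All 7 guide strands were detected in ischemia-reperfusion replicate 1 and in both sham muscles, and 6 of 7 in ischemia-reperfusion replicate 2. miR-10a-5p, which is known to restrain inflammatory signalling in human endothelial cells, gave 46.6 and 7.12 units after ischemia-reperfusion (replicates 1 and 2), against 573 and 48.5 units in sham muscle. The scanner error of these signals was 4.20, 2.59, 43.5 and 4.24 units in the same order, so the second value was measured with an error of 36.3%. miR-10b, its Hoxd-linked paralog, gave 70.5 and 22.2 units after ischemia-reperfusion, against 1738 and 78.3 units in sham muscle. For both miRNAs sham replicate 1 stood far above the other 3 samples, and sham replicate 2 and ischemia-reperfusion replicate 1 lay side by side.

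Among the miR-99/100 miRNAs, miR-99a had the largest gap between the ischemia-reperfusion samples, replicate 2 giving 0.0556 times the signal of replicate 1. It gave 462 and 25.7 units after ischemia-reperfusion, against 2488 and 547 units in sham muscle. miR-100, which has its own cluster with let-7a, gave 75.1 and 45.9 units after ischemia-reperfusion, against 394 and 94.7 units in sham muscle. miR-99b was the faintest of the 7 on each array, and near background on ischemia-reperfusion replicate 2. It gave 16.6 units and, below detection, 5.72 units (scanner error 2.54) after ischemia-reperfusion, against 55.6 and 26.6 units in sham muscle. In raw units both ischemia-reperfusion samples lay below both sham samples for 6 of the 7 members, all but miR-125a-5p, as they did for 76.7% of the 159 miRNAs tested below.

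The 2 miR-125 miRNAs parted on ischemia-reperfusion replicate 2. miR-125b-5p gave 706 and 194 units after ischemia-reperfusion, against 3099 and 845 units in sham muscle. miR-125a-5p, which shares its seed, gave 28.9 and 42.8 units after ischemia-reperfusion, against 140 and 31.8 units in sham muscle. miR-125a-5p was the only one of the 7 with a higher signal on ischemia-reperfusion replicate 2 than on replicate 1, and there the groups overlapped in raw units.

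**Figure D1:**
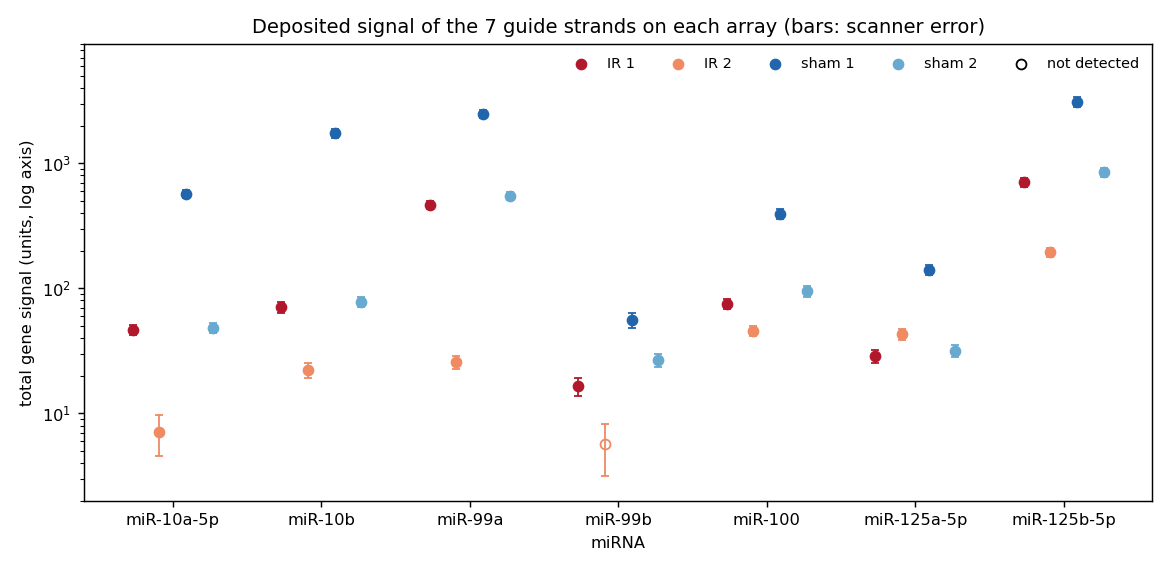
Deposited total gene signal (log axis, units) of the 7 guide strands on the 2 ischemia-reperfusion (IR) and 2 sham arrays; bars show the scanner software's error, and the open point is miR-99b below detection. Sham 1 is the brightest sample for each miRNA, IR 1 and sham 2 lie close together, and IR 2 is the dimmest except for miR-125a-5p.

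Between 1 array of each group the signals were near each other, and this was the closest of the pairings across groups. In the other pairings the median ratio of the 78 miRNAs was 0.319 for ischemia-reperfusion replicate 1 over sham replicate 1. For ischemia-reperfusion replicate 2 it was 0.0640 over sham replicate 1 and 0.152 over sham replicate 2. Ischemia-reperfusion replicate 1 held 62.2% to 96.2% of the signal of sham replicate 2 over the 7 miRNAs, and the median ratio of the 78 miRNAs detected on all arrays was 0.829. For 6 of 7 the gap was under 2 combined scanner errors, the exception being miR-99b at 2.43. Scanner error covers the reading of 1 array and not the spread between animals.

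The spread within the sham group was wider than that gap. Sham replicate 1 exceeded sham replicate 2 by 22.2-fold for miR-10b and 11.8-fold for miR-10a-5p, against 3.67-fold to 4.55-fold for miR-99a, miR-100, miR-125a-5p and miR-125b-5p and 2.09-fold for miR-99b. The median over the 78 miRNAs detected on all arrays was 2.50-fold. None of the other 77 had a larger ratio than miR-10b, and 2 had a larger one than miR-10a-5p. Beside this, the endothelial miRNA miR-126 had a ratio of 18.6 (4275 and 230 units), and the 2 endothelial miRNAs listed summed to 227 and 35.1 units after ischemia-reperfusion, against 4429 and 230 units in sham muscle. Other markers differed between these samples too. The 5 leukocyte miRNAs summed to 4127 and 33.0 units after ischemia-reperfusion (replicates 1 and 2), against 992 and 4970 units in sham muscle. They did not move together: miR-223, miR-142-3p and miR-142-5p were lower in sham replicate 1 than in sham replicate 2. miR-150 (551 and 189 units) and miR-342-3p (45.5 and 14.9 units) were higher there. The 5 mesenchymal and smooth muscle miRNAs summed to 1856 and 375 units after ischemia-reperfusion, against 5919 and 2229 units in sham muscle. Of these, miR-199a-3p gave 129.9 and 152 units after ischemia-reperfusion, against 1444 and 148 units in sham muscle. The others on that list differed less between the sham samples, such as miR-143 with 3838 and 1758 units. The part of endothelial, leukocyte or mesenchymal content in the miR-10 values was not tested.

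To compare the groups, signals were scaled so that the 75th percentile of the 78 miRNAs was equal on every array, and log2 was taken. On this scale the levels after ischemia-reperfusion (replicates 1 and 2) were −4.42 and −3.69 for miR-10a-5p, against −2.56 and −4.59 in sham muscle. For miR-10b they were −3.82 and −2.05 after ischemia-reperfusion, against −0.96 and −3.90 in sham muscle. In both cases the ischemia-reperfusion values lay between the 2 sham values. For miR-99a the levels were −1.11 and −1.84 after ischemia-reperfusion, against −0.44 and −1.10 in sham muscle, and the groups did not overlap, although ischemia-reperfusion replicate 1 and sham replicate 2 were nearly equal. Of the 7 members, 1 (miR-99a) had both ischemia-reperfusion arrays below both sham arrays, against 13.2% of all tested miRNAs, and 0 had both above, against 11.9%.

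For the other 4 miRNAs the scaled level of ischemia-reperfusion replicate 2 stood above the remaining arrays. miR-100 was at −3.73 and −1.003 after ischemia-reperfusion, against −3.10 and −3.63 in sham muscle. miR-125a-5p was at −5.11 and −1.11 after ischemia-reperfusion, against −4.59 and −5.20 in sham muscle. miR-125b-5p was at −0.49 and 1.08 after ischemia-reperfusion, against −0.13 and −0.47 in sham muscle. The scaled level of miR-99b was −5.91 and, with the undetected signal taken as given, −4.01 after ischemia-reperfusion, against −5.93 and −5.46 in sham muscle. Ischemia-reperfusion replicate 1 lay within or just below the sham values of each of the 4.

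No guide strand differed between the groups beyond the spread between replicates. limma tested the 159 miRNAs that 1 or both groups had detected in each of their samples, and its p-values measure the spread between these samples only. It called 0 of the 7 members and 0 of the 159 miRNAs (percent called 0 in either direction) at a Benjamini-Hochberg adjusted p under 0.05. Before adjustment 0 of 7 members were under 0.05, against 1.26% of all tested. The adjusted p of the 7 ran from 0.817 to 0.886 in limma. miR-125a-5p had the largest positive log2 difference, 1.79 ± 1.56 (SE, n = 2 per group), with a 95% interval from −2.23 to 5.81. miR-99a had the largest negative one, −0.71 ± 0.94 (interval −3.13 to 1.72). These intervals allow a several-fold change in either direction.

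The remaining members lay between these. The log2 difference was 1.00 ± 1.25 for miR-100, 0.73 ± 1.08 for miR-99b, 0.59 ± 1.02 for miR-125b-5p, −0.48 ± 1.12 for miR-10a-5p and −0.50 ± 1.41 for miR-10b (SE). In all, 4 of 7 were positive, with a median of 0.59. Over all 159 miRNAs 61.6% were positive, with a median of 0.45. The scaling moved that overall median to −0.31 with the percentile of all miRNAs, −0.0951 with the median, −0.35 with quantile normalization and −2.18 with no scaling, where all 7 members were negative. Relative to the overall median, miR-125a-5p stood at 1.34 and miR-100 at 0.55, while miR-10a-5p stood at −0.93, miR-10b at −0.96 and miR-99a at −1.16. miR-99b stood at 0.28 and miR-125b-5p at 0.14. The percentile of all miRNAs and the median shift a whole array, so they cannot change these relative values. Quantile normalization gave 1.59 for miR-125a-5p, 0.81 for miR-100, −0.94 for miR-10a-5p, −0.93 for miR-10b, −0.88 for miR-99a and 0.81 for miR-125b-5p, and turned miR-99b to −0.12.

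The positive differences rested on 1 sample. Without ischemia-reperfusion replicate 2, all 7 differences were negative, while 54.1% of all 159 were positive (median 0.0561). On the scaled level, ischemia-reperfusion replicate 1 lay above sham replicate 2 for miR-10a-5p, miR-10b and miR-125a-5p and below it for the others. The differences were −0.21 for miR-125a-5p, −0.36 for miR-100, −0.20 for miR-125b-5p, −0.22 for miR-99b, −0.34 for miR-99a, −0.84 for miR-10a-5p and −1.39 for miR-10b. Without ischemia-reperfusion replicate 1 that of miR-125a-5p was 3.79 and that of miR-100 was 2.36, and limma's adjusted p of miR-125a-5p, at 0.0944, was the lowest of any member under any alternative. The miR-10 differences depended most on the sham samples. Without sham replicate 1 they turned positive, to 0.54 for miR-10a-5p and 0.97 for miR-10b, and without sham replicate 2 they were −1.49 and −1.97. Without ischemia-reperfusion replicate 1 miR-10b also turned positive, at 0.38, and miR-10a-5p was at −0.11. That of miR-99a stayed negative, at −0.34 without ischemia-reperfusion replicate 2 and −1.07 without replicate 1.

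**Figure D2:**
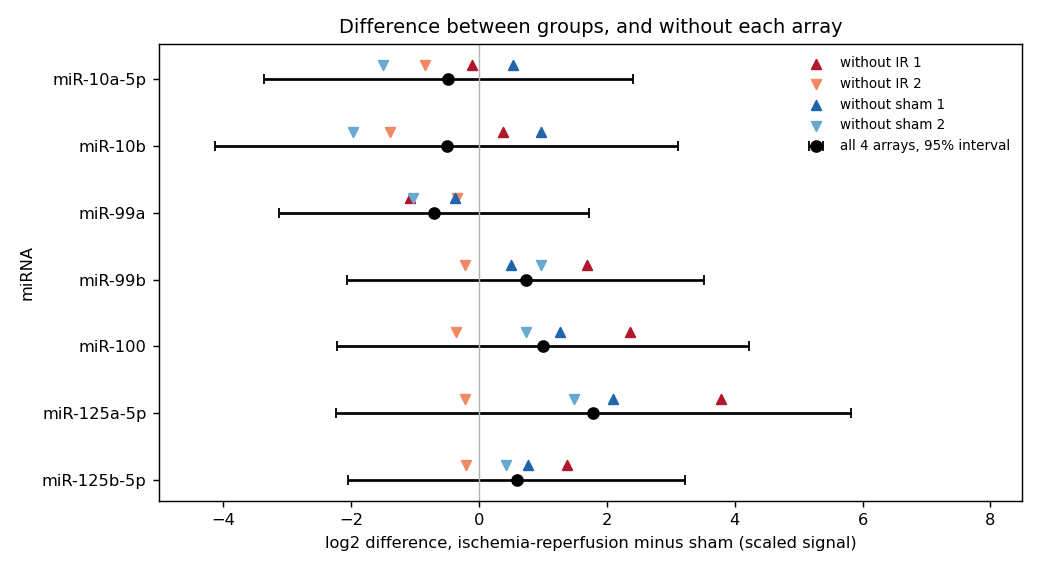
Log2 difference in scaled signal, ischemia-reperfusion minus sham, for the 7 guide strands with 95% intervals from limma (black), and the same difference with 1 array left out (triangles). Every interval spans 0. Without IR 2 all 7 differences lie below 0, beside 54.1% of all 159 tested miRNAs above it (not drawn). Without sham 1 the differences of miR-10a-5p and miR-10b lie above 0.

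A ratio of 2 miRNAs within an array does not depend on any scaling that divides an array by 1 factor, so it shows whether clustered partners kept step between arrays. Its size is not a ratio of molecules, because probes differ in affinity, and only its change between arrays is read. Of 13 pairs compared, 9 were cluster partners and 4 were paralogs. With both detected on all 4 arrays, 10 pairs could be tested. With 2 arrays against 2, an exact two-sided permutation test cannot go below p = 0.333. The smallest value seen was 0.333, and the smallest after adjustment over the 10 pairs was 0.953, so no pair passed.

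In the miR-99b, let-7e and miR-125a cluster, let-7e and miR-125a-5p kept step on 3 arrays, within 0.28 log2 units, and not on the remaining one. The log2 ratio of let-7e over miR-125a-5p was 1.78 and −0.19 after ischemia-reperfusion (replicates 1 and 2), against 1.67 and 1.94 in sham muscle, with scanner errors of 0.17 to 0.20. The difference between group means was −1.01 (exact permutation p = 0.667), and −0.0270 without ischemia-reperfusion replicate 2. The ratio on replicate 2 lay 3.96-fold from the mean of the other 3. The ratio of miR-99b over miR-125a-5p could be formed on 3 arrays only, at −0.80 in ischemia-reperfusion replicate 1, against −1.34 and −0.26 in sham muscle. Likewise miR-99b over let-7e was −2.58 in that sample, against −3.01 and −2.20. For both, the ischemia-reperfusion value lay between the sham values.

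In the miR-99a, let-7c and miR-125b cluster miR-99a and let-7c were both low against miR-125b-5p on 1 array. miR-99a over let-7c was −1.57 and −1.90 after ischemia-reperfusion, against −1.13 and −1.67 in sham muscle. The difference was −0.33 (exact permutation p = 0.667), and −0.17 without ischemia-reperfusion replicate 2. On that sample this ratio lay 1.36-fold from the mean of the other 3. Those 3 spanned 0.54 log2 units, the widest span of the cluster pairs detected on all 4 arrays, with scanner errors of 0.15 to 0.16. miR-99a over miR-125b-5p was −0.61 and −2.92 after ischemia-reperfusion, against −0.32 and −0.63 in sham muscle. let-7c over miR-125b-5p was 0.95 and −1.02 after ischemia-reperfusion, against 0.81 and 1.04 in sham muscle. On ischemia-reperfusion replicate 2 these last ratios were 5.28-fold and 3.87-fold below the mean of the other 3 arrays, which lay within 0.31 and 0.23 log2 units of each other. Without that sample the differences between groups were −0.14 and 0.0239, where all 4 arrays gave −1.30 and −0.96 (exact permutation p = 0.667 for each).

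In the miR-100, let-7a and miR-125b cluster miR-100 was high against both partners on 1 array. miR-100 over let-7a was −4.43 and −2.90 after ischemia-reperfusion, against −4.25 and −4.36 in sham muscle. miR-100 over miR-125b-5p was −3.23 and −2.08 after ischemia-reperfusion, against −2.98 and −3.16 in sham muscle. Both were higher on ischemia-reperfusion replicate 2 than on any other array, by 2.72-fold and 2.06-fold over the mean of the other 3. The differences between groups were 0.64 and 0.41 (exact permutation p = 1.0 for each), and −0.12 and −0.17 without that sample. let-7a over miR-125b-5p was 1.19 and 0.82 after ischemia-reperfusion, against 1.28 and 1.20 in sham muscle. It was the only pair of the 10 in which both ischemia-reperfusion arrays lay on 1 side of both sham arrays (difference −0.23, exact permutation p = 0.333). Without replicate 2 the difference was −0.0465, within the scanner error of 0.17.

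The paralogs gave the widest departures. miR-99a over miR-100 was 2.62 and −0.84 after ischemia-reperfusion, against 2.66 and 2.53 in sham muscle. It was thus 10.9-fold lower on ischemia-reperfusion replicate 2 than the mean of the other 3 arrays, which spanned 0.13 log2 units. The difference between groups was −1.70 (exact permutation p = 0.667) and 0.0252 without that sample. miR-125a-5p over miR-125b-5p, which share a seed, was −4.61 and −2.18 after ischemia-reperfusion, against −4.46 and −4.73 in sham muscle, a difference of 1.20 (exact permutation p = 0.667) and −0.0134 without replicate 2.

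miR-10a-5p over miR-10b did not follow this pattern. It was −0.60 and −1.64 after ischemia-reperfusion, against −1.60 and −0.69 in sham muscle, so that 1 sample of each group was at each level. The scanner error was 0.56 on ischemia-reperfusion replicate 2 and at most 0.19 elsewhere. The difference was 0.0265 (exact permutation p = 1.0). miR-99a over miR-99b was 4.80 in ischemia-reperfusion replicate 1, against 5.49 and 4.36 in sham muscle, and could not be formed on replicate 2.

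**Figure D3:**
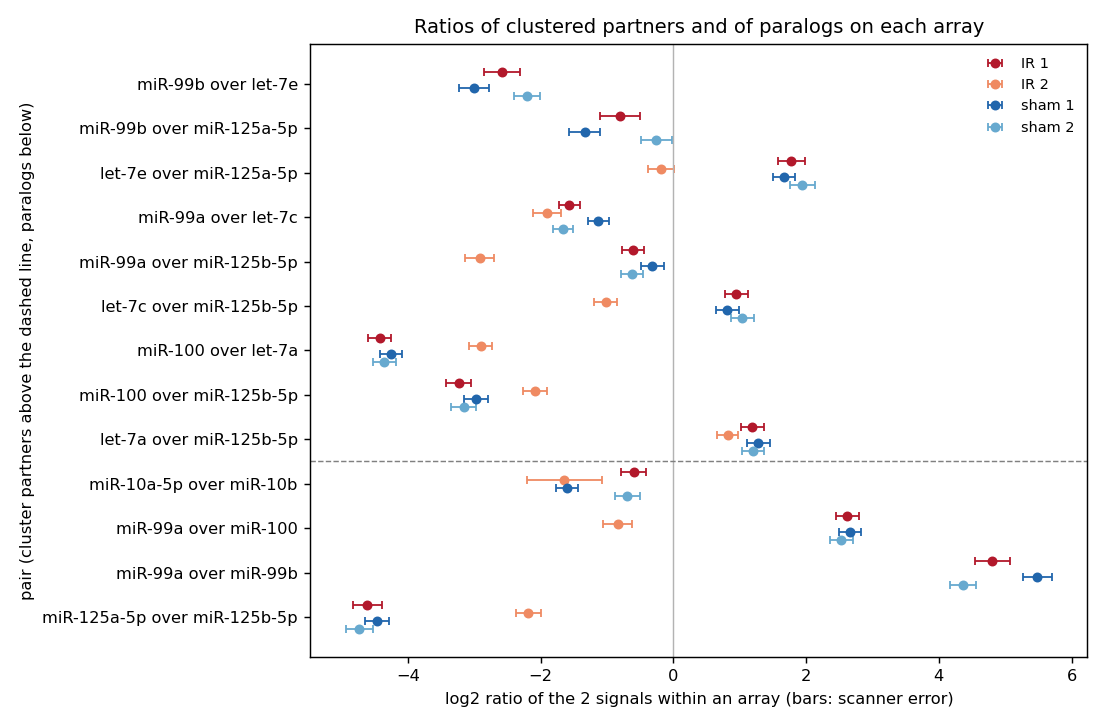
Log2 ratio of 2 signals within each array for 9 pairs of cluster partners and 4 pairs of paralogs; bars show the propagated scanner error, and pairs with miR-99b lack IR 2, where it was not detected. IR 1 and both sham arrays lie together in most pairs, while IR 2 stands apart by up to 10.9-fold, in miR-99a over miR-100.

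Seen as a whole, the profile of the family on ischemia-reperfusion replicate 1 lay close to that of sham replicate 2. Relative to the mean log2 signal of the 6 miRNAs detected on all arrays, miR-99a stood at 2.00 and −0.41 after ischemia-reperfusion, against 1.52 and 2.05 in sham muscle. miR-125a-5p stood at −1.99 and 0.33 after ischemia-reperfusion, against −2.63 and −2.05 in sham muscle. miR-10b stood at −0.71 and −0.61 after ischemia-reperfusion, against 1.00 and −0.75 in sham muscle. The samples that stood apart were thus ischemia-reperfusion replicate 2 for miR-99a and miR-125a-5p, and sham replicate 1 for miR-10b.

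**Figure D4:**
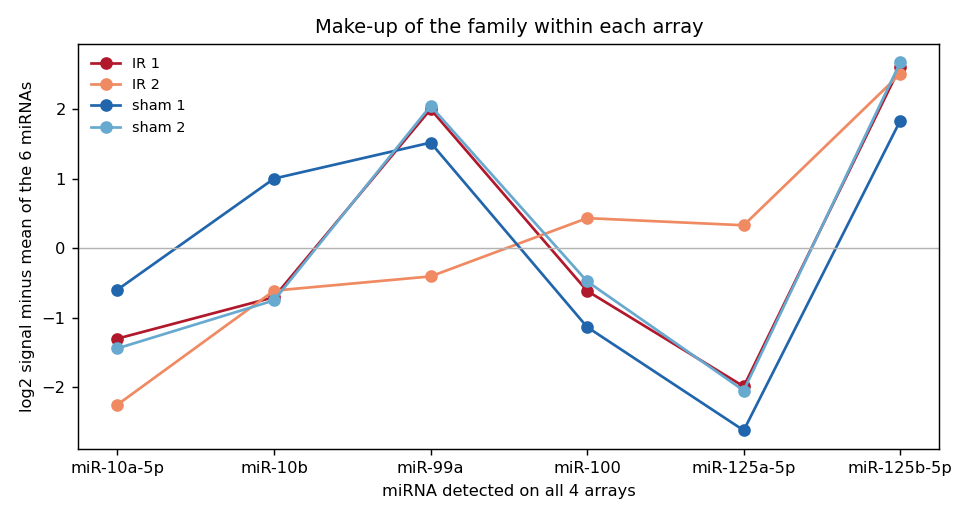
Log2 signal of each of the 6 guide strands detected on all 4 arrays minus their mean on that array; lines join the points of 1 array, and heights between miRNAs also reflect probe affinity. The IR 1 and sham 2 lines nearly coincide, sham 1 is high in miR-10b (1.00), and IR 2 is low in miR-99a (−0.41) and high in miR-125a-5p (0.33).

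The let-7 partners showed the same array pattern in their own signals. let-7a gave 1614 and 343 units after ischemia-reperfusion, against 7514 and 1940.45 units in sham muscle. let-7c gave 1366 and 95.9 units after ischemia-reperfusion, against 5449 and 1738 units in sham muscle. let-7e gave 99.2 and 37.6 units after ischemia-reperfusion, against 446 and 122 units in sham muscle. None passed limma's test: the log2 differences in scaled signal were 0.36 ± 0.97 for let-7a, −0.37 ± 0.90 for let-7c and 0.78 ± 1.10 for let-7e (SE, n = 2 per group). Without ischemia-reperfusion replicate 2 they were −0.24, −0.17 and −0.24.

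The array also held 6 other strands of the members' hairpins, of which 0 were detected on all 4 arrays. The sequence of miR-125a-3p, the 3′ strand of the miR-125a hairpin, is shown because it was detected on 3 arrays and its ratio to the guide strand varied between them.
miR-125a-3p: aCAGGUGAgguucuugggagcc
It gave 53.6 and 31.0 units after ischemia-reperfusion, against 8.88 units, below detection, and 84.6 units in sham muscle. Its log2 ratio to miR-125a-5p was 0.89 and −0.46 after ischemia-reperfusion, against 1.41 in sham replicate 2, and sham replicate 1 gave none although its miR-125a-5p signal was the brightest. The log2 difference in scaled signal was 3.29 ± 1.95 (SE), with limma's adjusted p at 0.817. Without ischemia-reperfusion replicate 2 the difference was 1.97. Both differences take the undetected signal of sham replicate 1 as given. The scaled level was −4.21 and −1.57 after ischemia-reperfusion, against −8.57 and −3.79 in sham muscle. Ischemia-reperfusion replicate 1 thus lay below sham replicate 2, the sham sample with a detected signal.

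miR-99a*, the other strand of miR-99a, gave 12.4 units and, below detection, −0.41 units after ischemia-reperfusion, against 49.1 and 19.8 units in sham muscle. Its log2 ratio to miR-99a was −5.22 in ischemia-reperfusion replicate 1, against −5.66 and −4.79 in sham muscle. miR-99b* was detected on sham replicate 2 alone (9.19 units), and miR-125b* on ischemia-reperfusion replicate 2 (7.32 units) and sham replicate 2 (5.25 units). miR-10a-3p and miR-125b-3p were detected on no array.

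Of the other Hox-linked miRNAs, miR-196a, miR-196b and miR-196c, which repress Hox genes such as Hoxb8 in mouse, were on the array. miR-196a, from the Hoxc cluster, gave 63.2 and 12.1 units after ischemia-reperfusion, against 604 and 75.9 units in sham muscle. miR-196b gave 38.5 and 13.3 units after ischemia-reperfusion, against 185 and 46.4 units in sham muscle. miR-196c, whose gene lies in the Hoxb cluster with Mir10a, gave 33.3 units and, below detection, 4.94 units after ischemia-reperfusion, against 204 and 49.2 units in sham muscle. Their log2 differences in scaled signal were −0.24 ± 1.06, 0.68 ± 1.08 and −0.25 ± 0.93 (SE), and none of the 3 passed limma's test. Without ischemia-reperfusion replicate 2 they were −0.76, −0.27 and −0.59.

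For each guide strand the miRNAs of most similar profile were those whose log2 ratio to it had the smallest SD over the 4 arrays, among 72 others detected on all arrays. For miR-10a-5p they were miR-196a (SD 0.30), miR-126 (0.31) and let-7f (0.52), where the median over the 72 was 1.28. For miR-10b they were miR-126 (0.46), miR-26b (0.61) and miR-196a (0.69), with a median of 1.65. Both miR-10 miRNAs thus had miR-126 and miR-196a among their 3 nearest. Sham replicate 1 exceeded sham replicate 2 by 18.6-fold for miR-126 and 7.96-fold for miR-196a. Of the 78 miRNAs detected on all arrays, 5 had a larger ratio than miR-196a.

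miR-99a lay nearest to miR-30c (0.0613), let-7d (0.15) and miR-29c (0.20), with a median of 1.25. miR-125b-5p lay nearest to let-7i (0.0724), let-7b (0.13) and miR-196b (0.16), with a median of 0.86. miR-100 lay nearest to miR-34a (0.30), miR-181b (0.30) and its non-partner let-7e (0.32), with a median of 1.09, and miR-125a-5p to miR-181d (0.31), miR-338 (0.41) and miR-210 (0.44), with a median of 1.63. The nearest of 72 is small by choice, and these neighbours depended on ischemia-reperfusion replicate 2. Over the other 3 arrays 5 of the 18 named neighbours stayed among the nearest 3: miR-196a for miR-10a-5p, miR-126 and miR-26b for miR-10b, and miR-30c and let-7d for miR-99a. There miR-199a-3p was nearest to miR-10a-5p (SD 0.14), miR-196b to miR-100 (0.0612) and miR-125a-5p (0.0785), and miR-195 to miR-125b-5p (0.0169).

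Among the members themselves, miR-100 and miR-125b-5p had the smallest SD (0.53), followed by miR-10a-5p and miR-10b (0.57), and miR-99a and miR-125a-5p the largest (2.41). The median over the 15 pairs of members was 1.24, beside a median of 1.18 over all 3003 pairs of miRNAs detected on every array. Without ischemia-reperfusion replicate 2 these medians were 0.75 and 0.60. miR-99a, miR-100, miR-125a-5p and miR-125b-5p then kept step, their 6 pairs having SDs of 0.0657 to 0.18, and miR-99a and miR-125a-5p had 0.0776. This was not particular to the family. Some miRNAs outside it had smaller SDs, such as 0.0158 for miR-30c with miR-99a and 0.0169 for miR-195 with miR-125b-5p. miR-10a-5p and miR-10b had 0.55, and their pairs with the other 4 had 0.75 to 1.47.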

How the data were processed

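Total RNA was labelled with Cy3 for 1-colour arrays. The submitters' processing notes name Agilent Feature Extraction, version 9.5.3. The deposited files hold, per the file headers, each miRNA's total signal intensity, the scanner's error of it and a detection flag. These intensities are linear, background-subtracted and not scaled between arrays. Of 1488 intensities in the deposited series matrix, 0 differed from the scanner files (tolerance 0). Its column medians were 5.53 and 2.90 units (ischemia-reperfusion) and 11.3 and 7.60 units (sham).

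Of each array, 22 control features were left out. The scaling factor of an array was the 75th percentile of its 78 miRNAs detected throughout. Scaled signals below that of the faintest detected miRNA were raised to it (log2 −9.32), and log2 was taken. R 4.3.3 and limma 3.58.1 (lmFit, eBayes) compared the groups, two-sided, with Benjamini-Hochberg adjustment over 159 miRNAs. The code was tested on simulated data. Partner ratios used scipy 1.17.1. Named were the members, let-7 partners, other strands, miR-196 and, per member, the 3 miRNAs of most similar profile. Members and lists were chosen with earlier results of these data known. Alternatives were other scalings, floors, filters and variance models, a replicate block and leaving out each array. The number of arrays limits the precision, and no slide or scan date was used.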

Additional observations from a re-analysis of the deposited data

How the results depend on the processing

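With 2 arrays per group, precision is set by the arrays, and signals near background (miR-99b and miR-10a-5p on ischemia-reperfusion replicate 2) are the least certain. No member was called by limma under any alternative. limma called 0 of 159 miRNAs (2 at an unadjusted p under 0.05, and 0 without moderation), 2 with no scaling, and 0 to 11 when 1 array was left out, the 11 without ischemia-reperfusion replicate 1, where the lone sample is assumed to vary like the sham group.

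The members' median log2 difference, 0.59, became −0.18 with the percentile of all miRNAs, −0.47 with quantile normalization, −2.13 with no scaling, 0.0401 with the median scaling and 0.0571 over the 6 members detected on all 4 arrays. In that last setting the median of all tested miRNAs was 0.61. The members' median ran from −0.34 to 1.38 when 1 array was left out. With the percentile of all miRNAs miR-99b was at −0.0337 and miR-125b-5p at −0.18, and quantile normalization gave −0.47 for miR-99b. With no scaling miR-99b was at −1.98, miR-100 at −1.72, miR-125a-5p at −0.93 and miR-125b-5p at −2.13. The percentile and the lack of scaling shift whole arrays. The cause of the quantile value was not tested. Leaving out 1 array gave −1.49 to 0.54 for miR-10a-5p, −1.97 to 0.97 for miR-10b, −0.22 to 1.68 for miR-99b, −0.36 to 2.36 for miR-100, −0.21 to 3.79 for miR-125a-5p and −0.20 to 1.38 for miR-125b-5p. miR-99a kept its sign throughout. Added after seeing the data, leaving out ischemia-reperfusion replicate 2 turned let-7a to −0.24, let-7e to −0.24 and miR-196b to −0.27, and changed most of the nearest profiles.

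Among differences of partner ratios, quantile normalization turned miR-99b over let-7e to −0.23, miR-100 over let-7a to −0.30, miR-100 over miR-125b-5p to −0.0055, let-7a over miR-125b-5p to 0.29, miR-10a-5p over miR-10b to −0.0136 and miR-99a over miR-99b to 0.36. The cause was not tested. Leaving out 1 array gave −0.38 to 0.42 for miR-99b over let-7e, −0.55 to 0.53 for miR-99b over miR-125a-5p, −1.94 to 0.0239 for let-7c over miR-125b-5p, −0.12 to 1.40 for miR-100 over let-7a, −0.17 to 0.99 for miR-100 over miR-125b-5p, −0.50 to 0.55 for miR-10a-5p over miR-10b, −3.43 to 0.0252 for miR-99a over miR-100, −0.68 to 0.44 for miR-99a over miR-99b and −0.0134 to 2.42 for miR-125a-5p over miR-125b-5p.

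The replicate number as a block cannot change the log2 differences in this balanced design (median 0.59), and limma then called 0 miRNAs. With the block 13 of 159 miRNAs had an unadjusted limma p under 0.05, against 2 without it. Nothing in the labels says that same-numbered samples share an animal or batch, so they were not treated as paired. Their deviations from the group means correlated at 0.0973 over 159 miRNAs. That value cannot decide on pairing, because each group gives only 1 contrast between its 2 samples. Whether same-numbered samples share a day or slide is not known.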
